A study of Mus musculus with 10 samples.

Results

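Hox genes of paralogue groups 3 and 4 are described here in mouse embryonic stem cells that had been treated with retinoic acid. The members were taken by gene symbol and comprise Hoxa3, Hoxb3, Hoxd3, Hoxa4, Hoxb4, Hoxc4 and Hoxd4, 7 of the 52636 gene identifiers counted. All cells were of the E14 line and were moved from medium with LIF and inhibitors of MEK and GSK into medium without them that held retinoic acid at 2 µM, and RNA was sequenced at 24 h. Wild-type cells (WT) were compared with a mutant (CBE-KO) from which a site bound by CTCF, a protein that shapes chromatin loops, is missing, with 2 biological replicates each. The title of the series places the element beside enhancers that contact the HoxA cluster. The labels do not say how many clones the CBE-KO libraries represent. The Capture-C libraries of the series, 3 per genotype, were not analysed here.

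Hox genes encode homeodomain transcription factors that give cells their position along the head-to-tail axis. They lie in 4 clusters, HoxA to HoxD, and genes at the same position in different clusters form a paralogue group with similar protein sequences. In the embryo, groups 3 and 4 are switched on in the posterior hindbrain and the adjoining neck region, and retinoic acid, acting through nuclear receptors on DNA, is a main inducer of both groups. Hoxa3 is required for the thymus and parathyroid glands, Hoxb3 acts with it in the hindbrain, and Hoxd3 in the first neck vertebrae. Hoxa4, Hoxb4, Hoxc4 and Hoxd4 pattern the neck vertebrae, and Hoxb4 is also known for expanding blood stem cells in culture.

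The DNA upstream of the members is shown first, since retinoic acid receptors bind DNA through the core motif AGGTCA and variants of it. RefSeq promoter windows of the GRCm38.p6 build matched 5 of the 7 members (Hoxa3, Hoxb4, Hoxc4, Hoxd3 and Hoxd4), and the 250 bases before each annotated start were searched on both strands. AGGTCA occurred upstream of 4 of these 5 members, in 14% of all 32851 windows in the table and in 2 of the 17 other Hox genes with a window. In each of the 4 members it lay on the reverse strand, so the printed strand reads as its complement, in capitals below with 27 bases on either side. The printed stretches are chr11:96318159-96318218 for Hoxb4, chr15:103034222-103034281 for Hoxc4, chr2:74711805-74711864 for Hoxd3 and chr2:74721806-74721865 for Hoxd4, all on the plus strand.
Hoxb4: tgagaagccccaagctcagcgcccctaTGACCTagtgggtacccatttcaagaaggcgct
Hoxc4: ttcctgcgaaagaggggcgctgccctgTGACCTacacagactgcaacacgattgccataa
Hoxd3: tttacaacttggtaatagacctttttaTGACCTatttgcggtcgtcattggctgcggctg
Hoxd4: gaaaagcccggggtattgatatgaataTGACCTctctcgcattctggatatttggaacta

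The capitals began 81 bases before the start of Hoxb4, 146 before that of Hoxc4, 161 before that of Hoxd3 and 145 before that of Hoxd4. The start that the table gives for Hoxc4 lies inside its RefSeq gene span. Those for Hoxa3 and Hoxd3 lie at the upstream ends of spans of 44.0 and 36.3 kb, which hold other Hox genes. Of the variants, AGTTCA occurred once upstream of Hoxc4 (11.8% of all windows), GGTTCA once upstream of Hoxd4 (8.85%) and GGGTCA in none of the 5 (11.6%). The Hoxa3 window held none of the 4 receptor motifs in its 250 bases. A stretch of it, chr6:52213068-52213107 on the minus strand, is shown for TGACAG, the core bound by the Hox cofactors of the Meis family. That core lay on the reverse strand, so the printed strand reads CTGTCA. It was found in 15.9% of all windows and in 1 of the 17 other Hox genes with a window.
Hoxa3: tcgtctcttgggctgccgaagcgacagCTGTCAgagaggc

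These matches describe letters in short windows and do not show that a factor binds there. The search was for single copies of each motif, and spaced pairs of copies were not looked for. No window was matched to the remaining members, Hoxa4 and Hoxb3.

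A microRNA gene of the miR-10 family sits beside a group 4 gene in HoxB (Mir10a, next to Hoxb4) and in HoxD (Mir10b, within the span of Hoxd4). Their mature 5p strands are shown with the seed, bases 2 to 8, in capitals, because they share it and differ at 1 base outside it, position 12.
miR-10a-5p: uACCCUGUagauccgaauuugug
miR-10b-5p: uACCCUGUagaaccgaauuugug

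Reads assigned to the Mir10a gene numbered 0 and 2 in WT and 7 and 0 in CBE-KO, and Mir10b had 0 in all 4 libraries. A library of ordinary RNA fragments does not measure the mature strands, so these counts say nothing of their level.

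The 4 libraries held 14108038 to 15632960 counts, at which 3 counts, taken as the floor of measurement, correspond to 0.192 to 0.213 CPM, the unit of counts scaled to the library's size. Each pair of replicates differed by more than sampling noise, with chi-square per degree of freedom of 3.66 and 2.84. Ctcf, which encodes the factor that binds the removed element, did not pass the test (log2 fold change -0.05 ± 0.05, SE; edgeR adjusted p = 0.472). All 10 embryonic stem cell markers were present, and 6 of them were called lower and 2 higher, where 43.1% of all tested genes were called. The 6 lower were Utf1 (log2 fold change -1.67), Tdgf1 (-1.20), Klf4 (-0.49), Zfp42 (-0.42), Sox2 (-0.35) and Pou5f1 (-0.33). The 2 higher were Dppa5a (0.28) and Nanog (0.15). The 10 markers summed to 8780 and 8472 CPM in WT and 8149 and 8314 CPM in CBE-KO. The largest part was Dppa5a, at 3554 and 3440 CPM against 4204 and 4305 CPM, so the sums mask the lower genes. Among 4 Y-linked genes, Ddx3y had 6 and 5 counts (WT) against 920 and 822 (CBE-KO), Eif2s3y 3 and 5 against 888 and 779, and Uty 2 and 0 against 293 and 267. The remaining gene, Kdm5d, was low in both groups, with 1 and 0 counts against 4 and 7, and was not tested. The groups therefore differed in Y-linked expression as well as in the labelled genotype, and in these libraries the effects of the element and of such other differences between the cells cannot be told apart.

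Hoxc4, Hoxa3, Hoxa4 and Hoxb4 were higher in CBE-KO, by 9.41-fold, 2.54-fold, 1.94-fold and 1.2-fold, and Hoxb3 did not pass the test. Hoxd3 and Hoxd4 had too few counts to be tested in either group. Of the 5 members tested, 4 passed edgeR's quasi-likelihood test at a Benjamini-Hochberg adjusted p under 0.05, against a background of 43.1% of the 16005 genes tested. All 4 were called higher, where the background was 21.6%. Both CBE-KO libraries lay above both WT libraries for those same 4 members, which held for 36.5% of all tested genes. Their 5 log2 fold changes had a median of 0.95, beside 0.0067 over all tested genes. In bulk RNA a larger share of expressing cells and more RNA per cell cannot be told apart. Scaling by library totals instead of trimmed means moved the share of higher genes among all calls from 50.2% to 67.0% and the median of all genes to 0.11, and left the same number of members called, 4.

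**Figure D1:**
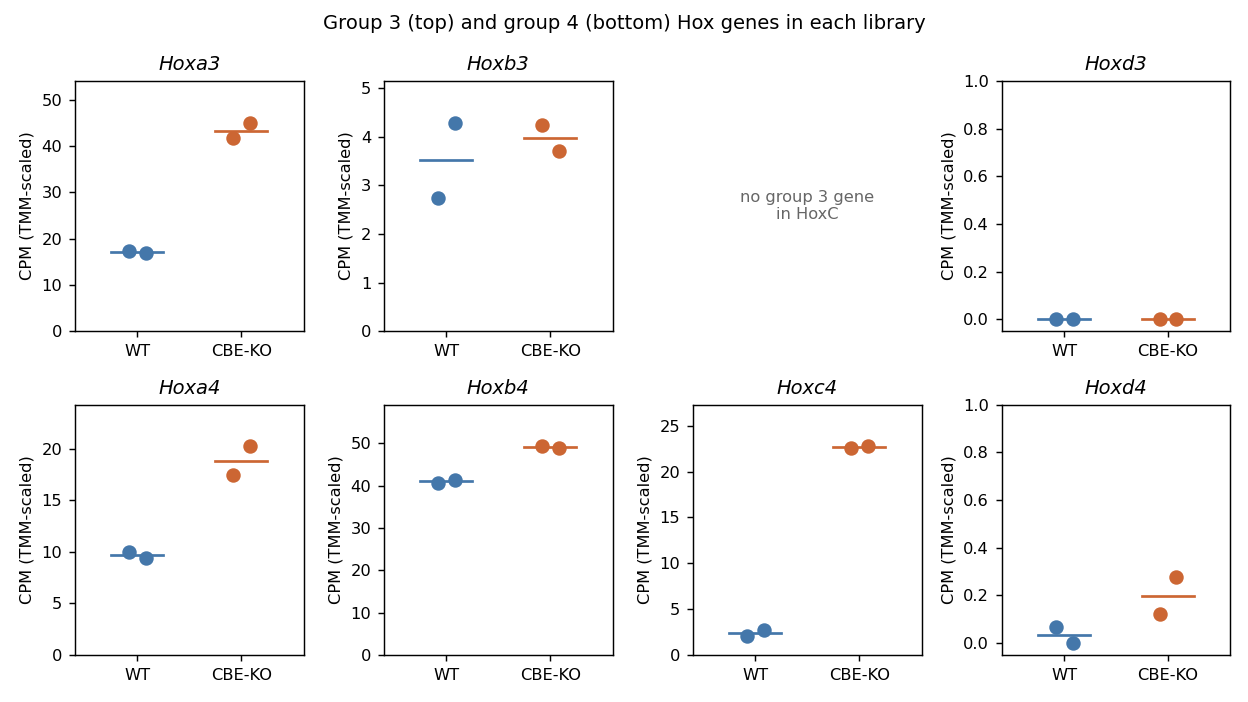
TMM-scaled CPM of each member in the 2 WT and 2 CBE-KO libraries (points), with the mean of each group (bars) and a separate linear axis per gene. Hoxa3, Hoxa4, Hoxb4 and Hoxc4 are higher in both CBE-KO libraries, Hoxb3 overlaps, Hoxd3 is at 0 and Hoxd4 stays below 0.275 CPM.

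Among the group 3 genes, Hoxa3 (ENSMUSG00000079560) was counted 253 and 231 times in the WT libraries and 676 and 655 times in the CBE-KO libraries. All CPM values in the text are scaled by trimmed means, except the floor, which rests on library totals. For Hoxa3 they were 17.3 and 16.8 against 41.7 and 45.0, with no overlap and a gap far wider than the spread within either group. The log2 fold change of Hoxa3 came to 1.34 ± 0.09 (SE, n = 2 each), with a 95% interval of 1.16 to 1.53 and an edgeR adjusted p of 2.52e-09. Every alternative scaling, filter and test kept Hoxa3 past the threshold, with log2 fold changes of 1.33 to 1.45, as did leaving out any 1 library (1.29 to 1.40).

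Hoxb3 (ENSMUSG00000048763), its HoxB paralogue, was counted 40 and 59 times in WT against 69 and 54 times in CBE-KO. In CPM the WT libraries stood at 2.74 and 4.29 and the CBE-KO libraries at 4.25 and 3.71, so the groups overlapped and the WT pair enclosed the CBE-KO pair. Its log2 fold change, 0.19 ± 0.25 (SE), had a 95% interval of -0.35 to 0.72 and an edgeR adjusted p of 0.587, and without WT replicate 1 its sign turned (-0.11). The interval holds 0, so a change was not detectable at this depth, and its upper end lies below the interval of Hoxa3.

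Hoxd3 (ENSMUSG00000079277) had 0 counts in each of the 4 libraries, which allows at most 3 counts per library, or 0.213 CPM in the shallowest, of the reads assigned to it. Its span holds Hoxd4 and overlaps other genes, and whether the counting assigned Hoxd3 reads elsewhere was not tested, so the limit is one on assigned reads and not on expression. The antisense gene Hoxd3os1, which overlaps its start, was also at 0 in all 4. HoxC has no group 3 gene.

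Among the group 4 genes, Hoxc4 (ENSMUSG00000075394) had the largest log2 fold change of the 5 tested members. Its counts were 30 and 38 (WT) and 366 and 331 (CBE-KO), or 2.05 and 2.76 against 22.6 and 22.7 CPM. The WT libraries were low but above the floor, and the CBE-KO libraries lay close together. The change of Hoxc4 was 3.23 ± 0.17 on the log2 scale (SE; 95% interval 2.88 to 3.59; edgeR adjusted p = 1.21e-10), a value that 48 of the 16005 tested genes (0.300%), Hoxc4 included, reached or passed. Leaving out 1 library gave 3.03 to 3.45.

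Hoxa4 (ENSMUSG00000000942) gave 146 and 129 reads in WT against 283 and 294 in CBE-KO. These correspond to 9.99 and 9.38 against 17.4 and 20.2 CPM, without overlap. On the log2 scale the change was 0.95 ± 0.13 (SE; 95% interval 0.67 to 1.24; edgeR adjusted p = 1.77e-05), and it lay between 0.85 and 1.06 when 1 library was left out.

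Hoxb4 (ENSMUSG00000038692) gave 593 and 570 reads in WT against 800 and 711 in CBE-KO. In CPM the values were 40.6 and 41.4 against 49.3 and 48.9. The rise was small but larger than the spread between replicates, at 0.26 ± 0.07 on the log2 scale (SE; 95% interval 0.11 to 0.41; edgeR adjusted p = 0.00695). Hoxb4 did not pass in DESeq2 (0.25, adjusted p = 0.0807), which called 3 of the 5 tested members and 28.6% of all genes, while leaving out any 1 library kept it past the threshold in edgeR (adjusted p up to 0.0429).

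Hoxd4 (ENSMUSG00000101174) gave 1 and 0 reads in WT against 2 and 4 in CBE-KO. Only CBE-KO replicate 2 exceeded 3 counts, so no fold change is given. Both HoxD members thus stayed at or near the floor in both genotypes.

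Levels are not ranked between genes, because values per exon length were not computed. What can be compared without lengths is the ratio of 2 members within a library, which also does not depend on scaling between libraries. Of 12 planned pairs, the 6 among the 5 tested members were computed, on counts plus 0.5. With 2 libraries against 2, a two-sided exact permutation test cannot give a p below 0.333, so none of these differences could pass, and each is given with its error and whether the groups overlapped.

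Of the 6 ratios, that of Hoxb4 to Hoxc4 differed most between the genotypes. Its log2 value was 4.28 and 3.89 in WT against 1.13 and 1.10 in CBE-KO, a difference of -2.97 ± 0.20 (SE, n = 2 each; exact permutation p = 0.333, adjusted p = 0.4 over 6 pairs). The excess of Hoxb4 reads over Hoxc4 reads was thus smaller in both CBE-KO libraries. The ratio of Hoxa4 to Hoxc4 was 2.26 and 1.75 in WT against -0.37 and -0.17 in CBE-KO, a difference of -2.28 ± 0.28 that took the ratio across 0, so that Hoxa4 had more reads than Hoxc4 in WT and fewer in CBE-KO, with no correction for length (exact permutation p = 0.333). Neither pair of groups overlapped.

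Between HoxA and HoxB, the ratio of Hoxa3 to Hoxb3 was 2.65 and 1.96 in WT against 3.28 and 3.59 in CBE-KO, a difference of 1.13 ± 0.38. For Hoxa4 to Hoxb4 the ratio was -2.02 and -2.14 in WT against -1.5 and -1.27 in CBE-KO, a difference of 0.69 ± 0.13. In both paralogue groups the ratio of the HoxA member to its HoxB counterpart was higher in each CBE-KO library than in each WT library (exact permutation p = 0.333 for each pair). Within HoxA, the ratio of Hoxa3 to Hoxa4 was 0.79 and 0.84 in WT against 1.25 and 1.15 in CBE-KO, a difference of 0.39 ± 0.06 (exact permutation p = 0.333). Within HoxB, the ratio of Hoxb3 to Hoxb4 overlapped between groups, with a difference of -0.05 ± 0.32 (exact permutation p = 1).

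**Figure D2:**
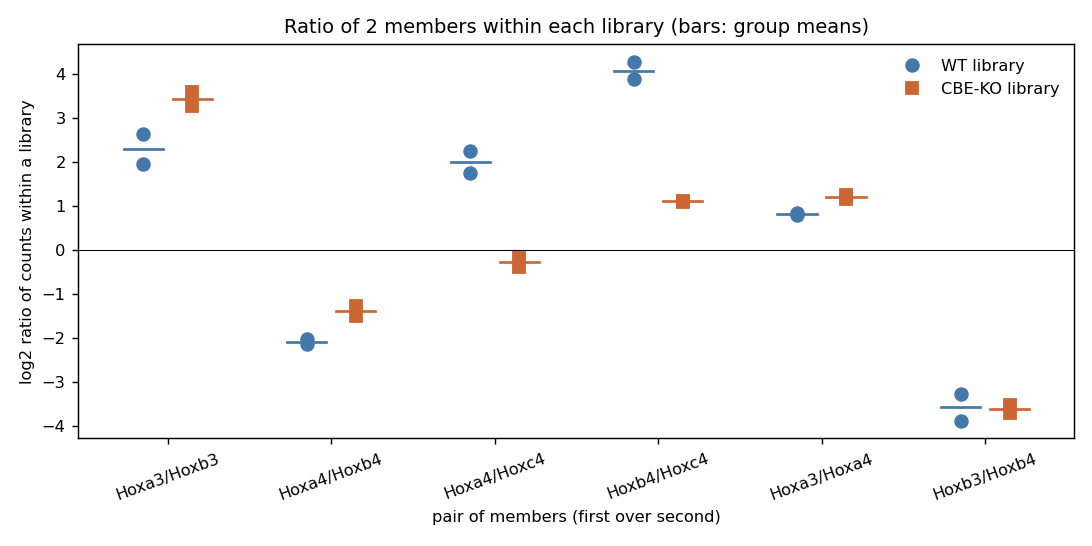
Log2 ratio of the counts of 2 members within each library, for 6 pairs, with WT libraries as circles, CBE-KO libraries as squares and bars for group means. The groups are apart for 5 pairs, farthest for Hoxb4/Hoxc4 (difference -2.97), and overlap for Hoxb3/Hoxb4.

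The members were then set beside their neighbours along each cluster, from group 2 onwards. In HoxC, all 7 tested genes were higher, and Hoxc4 (3.23) lay close to the adjacent Hoxc5 (3.37 ± 0.29, SE). Hoxc6, Hoxc8 and Hoxc9 had 0 to 2 counts in each WT library, so no fold change is given for them. They and Hoxc10 (1 and 4 counts in WT against 34 and 27 in CBE-KO) passed the filter only through CBE-KO. Their calls could hardly have been lower, so the result that all 7 were higher is partly set by the filter. In HoxB, Hoxb3 and Hoxb4 belonged to the anterior stretch of small differences, between Hoxb2 (0.32 ± 0.39, SE) and Hoxb5 (-0.24 ± 0.16, SE), neither of which passed, while Hoxb6 to Hoxb9 and Hoxb13 were higher by 0.47 to 1.75. In HoxA, Hoxa3 (1.34) and Hoxa4 (0.95) stood beside Hoxa5 (1.22 ± 0.06, SE), and Hoxa2 on their other side did not pass (0.32 ± 0.22, SE; edgeR adjusted p = 0.276). In HoxD, Hoxd3 and Hoxd4 could not be tested, whereas Hoxd8 (3 and 2 counts in WT against 18 and 14) and Hoxd13 (12 and 7 against 41 and 28) passed, both higher. Of 31 other Hox genes compared, 23 were tested and 17 passed, all of them higher. Over all tested genes, 43.1% were called and 21.6% called higher. Of these 17, Hoxc6, Hoxc8, Hoxc9, Hoxc10 and Hoxd8 had 0 to 4 counts in WT and passed the filter only through CBE-KO. Such genes could hardly come out lower, so the count of 17 leans towards higher. Differences between neighbours were not tested.

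**Figure D3:**
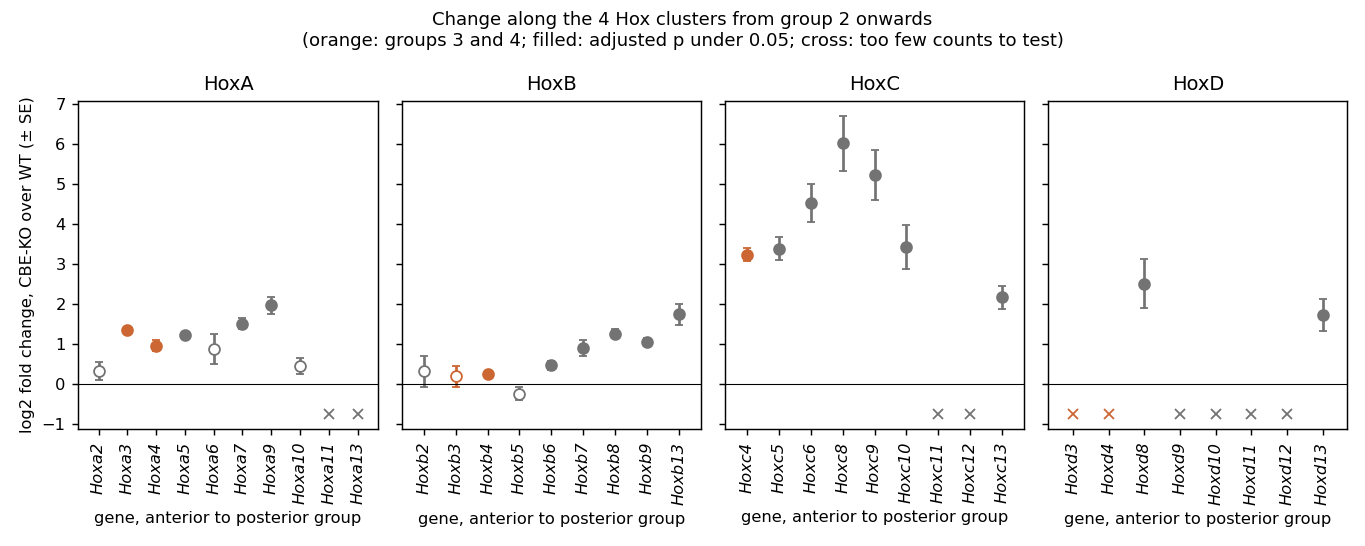
Log2 fold change of CBE-KO over WT (± SE) for Hox genes from group 2 onwards, ordered within each cluster, with groups 3 and 4 in orange, filled points for an adjusted p under 0.05 and crosses (placed at a fixed height) for genes with too few counts. Hoxc4 lies close to Hoxc5, the heights of Hoxc6, Hoxc8 and Hoxc9 depend on the prior count added by the fit since WT had 0 to 2 counts, Hoxb3 and Hoxb4 lie near 0, and both HoxD members are untested.

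Several members share transcribed ground with other genes. By RefSeq gene spans of the GRCm38.p6 build, which matches the build named in the submitters' processing notes, Hoxa3 (chr6:52169059-52213067) contains Hoxa4 (chr6:52189682-52191703), Hoxa5 and Hoxa6. In the same way Hoxb3 (chr11:96307101-96347930) contains Hoxb4 (chr11:96318267-96321638), and Hoxd3 (chr2:74711993-74748271) contains Hoxd4 (chr2:74721978-74729160). Hoxc4 (chr15:103018097-103036856) overlaps 1 other gene there, the noncoding Gm30528. Spans include introns, so they bound the overlap from above. The use of strand and the handling of reads that match several genes are not given in the sources used here, so reads of overlapping and antisense genes cannot be told apart.

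A list of noncoding genes in and around the clusters was compared. It leaves out Gm30528 and the noncoding genes inside the span of Hoxa3, which are Gm15050, 5730596B20Rik and LOC115490409. Several listed genes, among them Hotairm1, Haglr, Gm53 and Halr1, overlap no member. Of 12 listed, 11 matched an identifier, 7 were tested and 5 passed, all higher. The background was 43.1% called in either direction and 21.6% called higher. Hoxaas2, which overlaps the end of Hoxa3, had 25 and 22 counts in WT against 71 and 74 in CBE-KO (log2 fold change 1.51 ± 0.26, SE; edgeR adjusted p = 0.000173). Hoxaas3, which overlaps the distal start of Hoxa3, had 30 and 26 against 57 and 61 (0.96 ± 0.27, SE; edgeR adjusted p = 0.00769). Both differences run in the direction of Hoxa3 itself. Hoxb3os, antisense to Hoxb3, had 7 and 13 counts in WT against 5 and 5 in CBE-KO and was not tested. Hotairm1 (1.53), Haglr (2.02) and Gm53 (0.50) also passed, and Hoxb5os (1.5 ± 0.62, SE; edgeR adjusted p = 0.0599) and Halr1 (0.11 ± 0.05, SE; edgeR adjusted p = 0.106) did not. Haglr, with 6 and 2 counts in WT against 19 and 17 in CBE-KO, passed the filter only through CBE-KO and could hardly have come out lower. DESeq2 called 3 of the 7, without Hoxaas3 (adjusted p = 0.0741) and Haglr (adjusted p = 0.0758). Haglr was not called without WT replicate 2 either (adjusted p = 0.107), nor Hoxaas3 without CBE-KO replicate 2 (adjusted p = 0.0749).

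Genes of retinoic acid signalling, the inducer of groups 3 and 4, were compared as a list of 22, of which 20 were tested. In all, 15 passed, 10 higher and 5 lower, with a median log2 fold change of 0.30, where 43.1% of all tested genes were called and 21.6% called higher. Cyp26a1, whose enzyme breaks retinoic acid down, rose by 1.70 ± 0.05 (SE). Its paralogue Cyp26b1, an enzyme of the same role, was called lower (-0.32 ± 0.12, SE; edgeR adjusted p = 0.0438), and Cyp26c1 did not pass (0.19 ± 0.13, SE; edgeR adjusted p = 0.248). The call of Cyp26b1 was lost in DESeq2 (adjusted p = 0.173), with library totals (-0.21, adjusted p = 0.169) and without WT replicate 1, WT replicate 2 or CBE-KO replicate 1 (-0.31, -0.33 and -0.19; adjusted p = 0.103, 0.0722 and 0.308). Aldh1a2, whose enzyme makes it, rose from 11 and 13 counts to 40 and 36 (1.53 ± 0.36, SE), and Stra6, the retinol transporter, rose by 1.39 ± 0.09 (SE). The receptors differed in direction: Rara and Rarb were higher by 0.41 and 0.91, and Rarg, Rxra and Rxrg were lower at -0.68, -0.32 and -1.29. Rxrb did not pass (0.01 ± 0.06, SE; edgeR adjusted p = 0.918). Rxrg, with 11 to 28 counts, was not called by DESeq2 (adjusted p = 0.109), nor without WT replicate 2, CBE-KO replicate 1 or CBE-KO replicate 2 (adjusted p = 0.109, 0.0848 and 0.0668).

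Hox proteins of these groups bind DNA together with homeodomain partners of the TALE family, Pbx, Meis and Pknox. A list of 10 TALE genes was compared, and all 10 were tested. Higher levels were called for 4, Meis2 (0.88 ± 0.08, SE), Meis1 (0.78 ± 0.13, SE), Pbx3 (0.57 ± 0.15, SE) and Pbx4 (0.45 ± 0.16, SE), and a lower level for Pbx2 (-0.29 ± 0.05, SE, and -0.19 with library totals). The remaining 5, among them Pknox1 and Pknox2, did not pass, and the list had a median of 0.019. The 5 called of 10 are a share near the background of 43.1%, as against 21.6% of all tested genes called higher. DESeq2 did not call Pbx4 (adjusted p = 0.170), which was also lost without WT replicate 2 or CBE-KO replicate 1 (0.30 and 0.36 on the log2 scale; adjusted p = 0.211 and 0.188), and Pbx3 was lost without CBE-KO replicate 1 (adjusted p = 0.0574).

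Factors known to act on group 3 and 4 genes or on Hox clusters formed a list of 20, of which 17 were tested. The 7 that passed, 3 higher and 4 lower, are a share close to the background of 43.1%. Gbx2, a homeobox gene of the anterior hindbrain, fell by 1.55 ± 0.11 (SE; edgeR adjusted p = 5.77e-09), and Cdx1, a homeobox activator of Hox genes, rose by 0.32 ± 0.07 (SE), or by 0.21 without WT replicate 1. Subunits of the Polycomb complex that represses Hox clusters had small differences, with Eed at -0.46 ± 0.05 and Suz12 at -0.22 ± 0.05 called lower and Ezh2 at -0.05 ± 0.05 (SE) not called. Suz12 and Yy1, a further gene called lower (-0.21), did not pass with library totals (-0.11 for each; adjusted p = 0.0608 and 0.101), nor did Yy1 without CBE-KO replicate 2 (adjusted p = 0.0582). The signals Fgf8 (1.42 ± 0.54, SE) and Gdf11 (0.54 ± 0.21, SE) passed narrowly and were not called by DESeq2 (adjusted p = 0.207 and 0.184). Fgf8 was lost without WT replicate 1, WT replicate 2 or CBE-KO replicate 2 (log2 fold changes of 1.94, 1.05 and 0.91; adjusted p = 0.0557, 0.245 and 0.418). Gdf11 was lost without WT replicate 1 or CBE-KO replicate 1 (0.27 and 0.47; adjusted p = 0.351 and 0.159) and reached 0.85 without WT replicate 2.

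**Figure D4:**
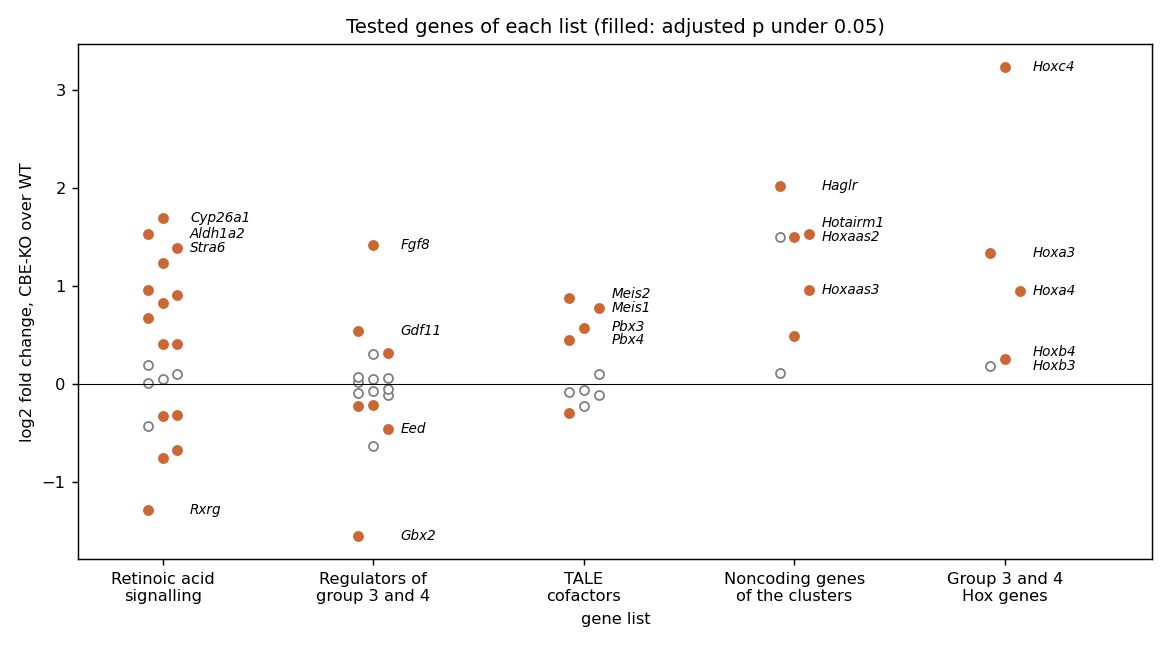
Log2 fold change of CBE-KO over WT for each tested gene of 5 lists, with filled points for an adjusted p under 0.05 and names for the largest called changes and all tested members. Changes run both ways in the signalling, regulator and TALE lists, and the called noncoding genes and members are all higher.

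Markers of other cell types were measured beside these results. Of 7 extraembryonic endoderm markers, all were tested and edgeR called 3 (Gata4, Sox7 and Dab2), all higher. Over all tested genes, 43.1% were called in either direction and 21.6% were called higher, which is the background for each marker list. The endoderm markers summed to 87.6 and 87.5 CPM in WT and 98.6 and 100.7 CPM in CBE-KO. Of 7 fibroblast markers, Postn, Lum and Dcn were at 0 in all libraries, and the sum was 11.4 and 12.9 CPM against 14.8 and 17.6 CPM. Of the 2 tested, Thy1 did not pass and Col1a1 was called higher (48 and 50 counts against 95 and 100). Col1a2 (0 and 1 counts in WT against 12 and 8 in CBE-KO) and Col3a1 (0 and 0 against 8 and 1) were not tested. Of 4 neural markers tested, Sox1 and Pax6 were called higher and Tubb3 lower. Of 3 mesoderm markers tested, only Kdr was called, higher, and of 4 trophoblast markers tested only Tfap2c, lower. Dab2 and Kdr were not called by DESeq2 (adjusted p = 0.0548 and 0.163). Dab2 was also lost without CBE-KO replicate 1 (adjusted p = 0.0816), and Kdr, with 6 counts in each WT library and 15 and 22 in CBE-KO, without WT replicate 1, WT replicate 2 or CBE-KO replicate 2 (adjusted p = 0.115, 0.0908 and 0.287). The 6 neural markers summed to 98.2 and 88.3 CPM in WT and 68.6 and 68.7 CPM in CBE-KO. Most of this was Tubb3 alone, at 74.3 and 64.5 CPM in WT against 40.4 and 41.2 CPM in CBE-KO. The 5 mesoderm markers summed to 4.04 and 4.07 against 4.81 and 5.22 CPM, and the 5 trophoblast markers to 26.1 and 26.0 against 16.3 and 17.6 CPM. Most of the trophoblast sum was Tfap2c alone, at 21.1 and 21.2 CPM against 12.4 and 12.9 CPM. The part of such cells in the differences of the Hox members was not tested.

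For each tested member, the gene outside the Hox clusters with the most similar profile was named, by Euclidean distance between the log2 CPM values of the 4 libraries, each centred on its mean, among 14568 genes. Trim12c was nearest to Hoxa3 (distance 0.066), Inha to Hoxb3 (0.033), Wdr86 to Hoxa4 (0.018), Kremen1 to Hoxb4 (0.013) and Zfp521 to Hoxc4 (0.265). Zfp521, which encodes a zinc finger protein, gave 4 reads in each WT library and 54 and 53 in CBE-KO. Inha, the inhibin alpha subunit, did not pass with all 4 libraries (log2 fold change 0.19 ± 0.21, SE; edgeR adjusted p = 0.493), passed without WT replicate 2 (0.54, adjusted p = 0.0475) and changed sign without WT replicate 1 (-0.10). Kremen1, which encodes a Wnt receptor partner, passed like Hoxb4 (0.26 ± 0.08, SE; edgeR adjusted p = 0.0185) and was lost in DESeq2 (adjusted p = 0.166) and without WT replicate 1, CBE-KO replicate 1 or CBE-KO replicate 2 (adjusted p = 0.104, 0.0592 and 0.0587). With 4 libraries many genes have similar profiles, and the distances describe these libraries.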

How the data were processed

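The deposited values are raw read counts per Ensembl mouse gene, 1 file per library, as the values show. Per the submitters' processing notes, the build was mm10 and the tools included HISAT2 2.1.0 and HTSeq 0.9.1, with no roles given. Strand setting and annotation release are not given in the sources used here. Symbols matched 52403 of 52636 identifiers.

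Genes were filtered with filterByExpr, scaled by trimmed means (TMM) and tested with edgeR 4.0.16 (glmQLFit, glmQLFTest; two-sided, Benjamini-Hochberg over 16005 genes). The 5 tested members exceeded 2 CPM in every library. SE and 95% intervals come from the F statistic. Alternatives were DESeq2 1.42.0, median-of-ratios scaling, library totals, no filter, a mean of at least 1 CPM, a replicate block, and leaving out each library, where the lone library is assumed to vary like the others. Scripts were tested on simulated data.

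The members and lists were chosen with earlier results of these data known, and some genes are not reported here. Named genes were all members, up to 4 of the largest called changes per list, all noncoding genes, and the nearest profile of each tested member; Cyp26b1, Cyp26c1, Cdx1, Suz12, Ezh2, Yy1, Pbx2, Pbx4, the receptors, the cell type markers named and the Hox neighbours were added after their values were seen. The Y-linked genes, Pknox1 and Pknox2 also lay outside the stated choice of named genes. Floors of 3 counts allow for counting error alone, because PCR copies cannot be recognised without molecular identifiers.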

Additional observations from a re-analysis of the deposited data

How the results depend on the processing

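The number of members called, 4 of 5, was the same under each other scaling, filter, the replicate block and each left-out library, and was 3 in DESeq2. The number of all genes called, 6895, was 4577 in DESeq2 and the cause was not tested. Under the replicate block, 7027 genes and 4 members were called, and the log2 fold change of Hoxc4 was 3.24. Libraries that share a number deviated from their groups' means with a correlation of 0.035, so the numbers were not taken to pair the samples. The log2 fold change of Hoxb3 ranged from -0.11 (without WT replicate 1) to 0.54 when 1 library was left out, and the Hoxb3/Hoxb4 difference ranged from -0.35 to 0.26 in the same way, with both signs. No other tested member and no other pair changed sign. Hoxd4 had at most 4 counts in a library, and without the filter it entered the test and did not pass (adjusted p = 0.490).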
